A study of Mus musculus with 3 samples.

Results

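The genes described here are 40 genes of the cell cycle, out of 32285 features counted in tumour dendritic cells and in the cells sorted along with them. They were taken by name, as genes transcribed when a cell copies its DNA or divides, and the rule sets no threshold on a measured value. By role, 18 act in G2 and mitosis, 14 in DNA synthesis, and 8 encode chromatin proteins, histones, a tubulin or the tubulin-binding protein stathmin. Their UMIs (unique molecular identifiers, 1 per captured transcript) were summed in groups of cells set apart by marker genes.

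The cells came from MCA205 LA-OVA fibrosarcomas, transplanted into both flanks of C57BL/6J mice aged 6 to 20 weeks and harvested on day 5. The study describes the states and the places of type 1 conventional dendritic cells (cDC1s) in tumours. The mutant mice were added to see if the receptor DNGR-1, which is encoded by Clec9a and is blocked by the secreted form of gelsolin, bears on those states, and the authors pooled the genotypes after finding no such effect. Each of the 3 droplet libraries pooled the mice of 1 genotype. The WT library was made from 37 mice (25 males, 12 females), the sGSN-/- library, which lacks secreted gelsolin, from 31 mice (15 males, 16 females), and the sGSN-/-Clec9a-/- library, which lacks DNGR-1 as well, from 27 mice (10 males, 17 females). All mice were housed together for over 3 weeks. Live CD45+ cells negative for a lineage cocktail and for CD88, and positive for CD11c and MHC class II, were sorted as pre-cDCs, cDC1s and cDC2s and mixed at 1:1:2. The lineage cocktail held antibodies to NK1.1, Cd3e and B220 among others, which are meant to remove NK cells, T cells, B cells and plasmacytoid cells.

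A cell that divides first copies its genome in S phase and then separates the copies in mitosis. E2F transcription factors, held back by RB proteins until G1 cyclins and their kinases act, switch on the genes of DNA synthesis, whereas the MuvB complex with B-MYB and FOXM1, which meets promoters at CHR elements that often lie beside CCAAT boxes, switches on those of mitosis. In tissues, cDCs are replaced by dividing pre-cDCs from the bone marrow, and differentiated cDCs divide little.

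The WT library held 12763 cells and 176578136 UMIs, the sGSN-/- library 8173 cells and 109270958 UMIs, and the sGSN-/-Clec9a-/- library 9273 cells and 113411930 UMIs, with medians of 13210, 11954 and 10649 UMIs per cell. Any pair of libraries shared at most 28 barcodes, and 0 were found in all 3. Values of single libraries are given below in the order WT, sGSN-/- and sGSN-/-Clec9a-/-. Clec9a, the targeted gene, stood at 163.0, 158.7 and 0.0959 counts per 1000000 UMIs (CPM) in Xcr1 cells, where the last value rests on 3 UMIs and matches the label of that library. Gsn stood at 156.7, 177.2 and 168.9 CPM, but the deletion removes the secreted isoform alone and a 3′ tag of the gene does not check it.

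The authors' table of cDC1s, from which they had left out clusters of proliferating cells, assigns 2316, 1712 and 1778 cells to 12 clusters. Cells outside that table with at least 1000 genes were grouped by the 1 marker gene they held among Xcr1 (a chemokine receptor of cDC1s), Cd209a (a C-type lectin of cDC2s), C1qa (complement, made by macrophages) and Ncr1 (the NK cell receptor NKp46). The deposited cDC1s together with the Xcr1 cells outside the table are called Xcr1 cells, and the deposited cells entered whether or not Xcr1 was detected in them. The marker genes used for grouping stood at 222.0 CPM (Xcr1), 699.3 (Cd209a), 2380.8 (C1qa) and 412.8 (Ncr1) in their own groups, averaged over libraries. Lists of further markers, each of which includes the gene used for grouping, were highest in the same groups. The rule of grouping fixes that gene's part of each sum, and sums without it are not given. The 6 cDC1 genes summed to 1883.0 ± 79.7 CPM (SD, n = 3 libraries) in Xcr1 cells, the 6 cDC2 genes to 2021.0 ± 26.5 in Cd209a cells, the 7 macrophage genes to 9677.6 ± 256.1 in C1qa cells and the 7 NK cell genes to 7229.3 ± 707.7 in Ncr1 cells. The groups were not free of each other's genes, with the cDC1 list at 730.1 CPM in Ncr1 cells and the cDC2 list at 948.8 CPM in C1qa cells. Gzma (granzyme A), at 3711.7 CPM, was the most abundant of the NK list in Ncr1 cells, and Klrb1c, which encodes the gated NK1.1, stood at 307.8.

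Cells with Mki67, a protein that coats mitotic chromosomes and is the usual mark of cycling cells, were rare among the deposited cDC1s and made up most of the Xcr1 cells left out of the table. In the deposited cDC1s, Mki67 was detected in 9.07% of the WT cells (exact Clopper-Pearson 95% interval 7.93 to 10.3), 9.35% of the sGSN-/- cells (8.01 to 10.8) and 6.41% of the sGSN-/-Clec9a-/- cells (5.32 to 7.65). Among Xcr1 cells outside the table the shares were 57.4% (53.2 to 61.5), 64.9% (60.5 to 69.1) and 58.9% (54.6 to 63.0). The intervals, here and below, cover counting error only. All 3 values outside the table lay above all 3 inside it. The authors had themselves used Mki67 to leave out proliferating clusters. Of all Xcr1 cells with Mki67, 330 of 540, 316 of 476 and 329 of 443 were outside the table (61.1%, 66.4% and 74.3%).

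The other populations lay between these extremes. Mki67 was detected in 15.4% (14.1 to 16.8), 16.9% (14.8 to 19.1) and 13.9% (12.3 to 15.7) of Cd209a cells, in 23.2% (21.2 to 25.3), 25% (21.7 to 28.6) and 22.3% (19.6 to 25.3) of C1qa cells, and in 27% (23.7 to 30.4), 23.9% (21.5 to 26.5) and 19.9% (17.2 to 22.8) of Ncr1 cells. C1qa cells exceeded Cd209a cells in all 3 libraries, whereas the means of C1qa cells (23.5 ± 1.39%) and Ncr1 cells (23.6 ± 3.52%) differed by less than their spread. Xcr1 cells inside and outside the table, as 1 group, were at 18.7%, 21.6% and 19.0% (19.8 ± 1.64%). This was above Cd209a cells and below C1qa cells in every library.

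Depth differed between these groups, so 4000 UMIs were also drawn from each cell. The mean share then was 3.26 ± 0.557% in deposited cDC1s, 40.4 ± 2.85% in Xcr1 cells outside the table, 7.36 ± 0.505% in Cd209a cells, 12.5 ± 1.09% in C1qa cells and 15.9 ± 1.15% in Ncr1 cells, against 8.27 ± 1.62%, 60.4 ± 3.97%, 15.4 ± 1.48%, 23.5% and 23.6% with all UMIs. Ncr1 cells, the shallowest with a mean of the library medians of 8358.8 UMIs, lay above C1qa cells (14771.7 UMIs) in each library at equal depth, with 16.6%, 16.6% and 14.6% against 11.3%, 13.5% and 12.7%. Cells with fewer than 4000 UMIs do not enter these shares, and they numbered 67, 110 and 118 in deposited cDC1s, 43, 39 and 42 among Xcr1 cells outside the table, 73, 89 and 67 in Cd209a cells, 58, 48 and 55 in C1qa cells and 54, 179 and 144 in Ncr1 cells. Deposited cDC1s, at a mean of the library medians of 13491.0 UMIs, had the lowest share of these groups in every library, at full depth and at 4000 UMIs. The part of free RNA in the shares was not estimated.

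**Figure D1:**
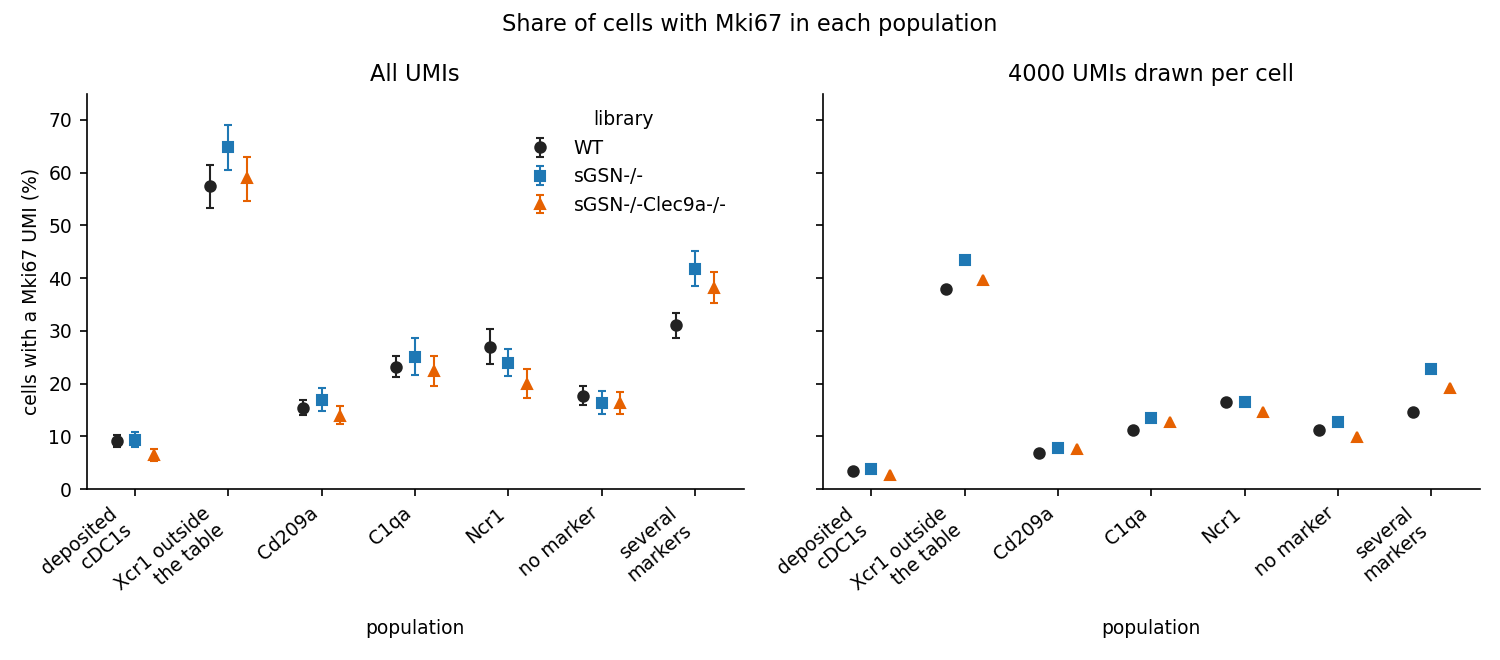
Share of cells with at least 1 Mki67 UMI (vertical axis, percent) in each population (horizontal axis), with 1 point per library, with all UMIs and with 4000 UMIs drawn per cell; bars are exact 95% intervals. Xcr1 cells outside the deposited table reached 57.4% to 64.9% with all UMIs, and the deposited cDC1s 6.41% to 9.35%.

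The 2 kinds of Xcr1 cells differed by far more in the cell cycle than in cDC1 genes. The 6 cDC1 genes summed to 1999.6, 1975.0 and 1860.2 CPM in deposited cDC1s and to 1742.6, 1800.7 and 1640.0 CPM outside the table, where they were lower in every library although the cells there had been picked by Xcr1. Irf8, the transcription factor that cDC1s depend on, stood at 1197.6 and 1053.5 CPM. The 17 mitosis genes other than Mki67 summed to 34.7, 46.6 and 36.7 CPM in deposited cDC1s and to 1225.7, 1620.1 and 1466.1 CPM in Xcr1 cells outside the table. The 14 synthesis genes summed to 214.1, 227.8 and 229.8 CPM inside the table and to 1917.1, 1946.9 and 1769.1 CPM outside it. Each role was thus higher outside the table in every library, and the gap, taken as a ratio, was wider for mitosis. Synthesis genes exceeded mitosis genes by a ratio of 5.77 ± 0.766 in deposited cDC1s and of 1.32 ± 0.208 in Xcr1 cells outside the table. The 8 chromatin and tubulin genes summed to 2902.2 ± 129.2 CPM and 10527.9 ± 181.6 CPM. The authors' selection used the cell cycle, so that these gaps are a description and were not tested.

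Single genes differed widely in how much of their expression was bound to the cycling cells. Top2a, the topoisomerase that untangles chromosomes, stood at 5.94, 5.86 and 5.17 CPM in deposited cDC1s and at 301.1, 370.3 and 305.8 CPM in Xcr1 cells outside the table. Pcna, the sliding clamp of DNA polymerases and a DNA repair protein, was at 89.2 ± 3.09 CPM inside the table and 282.3 ± 13.2 CPM outside it. H2afz, which encodes the histone variant H2A.Z and is made throughout the cycle, was at 2337.8 ± 110.0 CPM and 3658.2 ± 240.8 CPM. Markers of other cells moved with the same split. The NK list summed to 31.6 ± 16.2 CPM in deposited cDC1s and 110.4 ± 49.8 CPM (56.6, 119.6 and 155.0) outside, with Gzma most abundant at 52.3 CPM. The T cell list summed to 4.3 ± 1.15 CPM and 27.3 ± 9.15 CPM, with Cd3d most abundant at 7.52 CPM. The macrophage list was also higher outside in every library, with means of 54.2 ± 18.3 and 110.4 ± 11.8 CPM. The plasmacytoid list (367.8 and 333.1 CPM) and the pre-cDC list (184.9 and 156.8 CPM) were lower outside. The highest 6% of doublet scores took in 9.74%, 12.1% and 8.94% of Xcr1 cells outside the table and 1.6%, 0.993% and 1.74% of deposited cDC1s. With the highest 6% of doublet scores left out, the share with Mki67 outside the table was 63.3 ± 3.49%, against 60.4 ± 3.97% with all cells. The part of other cells or of doublets in the cell cycle levels was not tested.

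Some further genes made in the cycle, most of which act upstream of the members, showed the same split. They are given as examples and not as a count over a list. The mean was 0.716 CPM in deposited cDC1s and 24.0 CPM outside the table for Ccne2 (cyclin E2), 0.526 and 17.6 CPM for Foxm1, 0.215 and 14.5 CPM for Mybl2 (B-MYB), 0.14 and 13.0 CPM for E2f7 (a repressor E2F), and 3.13 and 62.4 CPM for Uhrf1, which keeps DNA methylation through replication. Ccnd1 (363.3 and 348.5 CPM) and Ccnd2 (72.8 and 72.0 CPM), cyclins that answer to growth signals, did not part the cells in this way. The kinase inhibitor Cdkn1a (p21) was at 134.2 ± 10.4 CPM inside the table and 241.1 ± 17.3 CPM outside it, and Cdkn1b (p27) at 140.7 and 121.7 CPM. Mycl, the MYC family member of cDC1s, stood at 37.3 and 34.3 CPM.

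A UMI of Mki67 meant different things in different populations. In Xcr1 cells outside the table with Mki67, 695 of 975 (71.3%, interval 68.3 to 74.1) also held at least 5 of the other 17 mitosis genes. In deposited cDC1s with Mki67 the count was 24 of 484 (4.96%, 3.2 to 7.29), and 57.6% held none of the 17. A single UMI was all that supported Mki67 in 75% of the deposited cells with it, against 16.6% of those outside the table. Top2a was detected beside Mki67 in 14.0% of the former and 85% of the latter. The other populations lay in between, with 295 of 875 Cd209a cells (33.7%, 30.6 to 37), 382 of 738 C1qa cells (51.8%, 48.1 to 55.4) and 378 of 623 Ncr1 cells (60.7%, 56.7 to 64.5). Xcr1 cells as 1 group were at 43.3%, 49.8% and 56.0% in the 3 libraries.

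Counted over all cells, with or without Mki67, at least 5 of the 17 genes were found in 0.727 ± 0.186% of deposited cDC1s, 44.7 ± 3.23% of Xcr1 cells outside the table and 15.3 ± 2.58% of Ncr1 cells. At 4000 UMIs per cell the means were 0.0409%, 31.4% and 11.5%. Some of the cells without a Mki67 UMI were in the cycle by the other genes, since 4.18% of such Xcr1 cells outside the table held at least 5 mitosis genes and their median cell held 5 of the 14 synthesis genes. Among deposited cDC1s without Mki67, 0.319% held at least 5 mitosis genes, with a median of 2 synthesis genes.

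**Figure D2:**
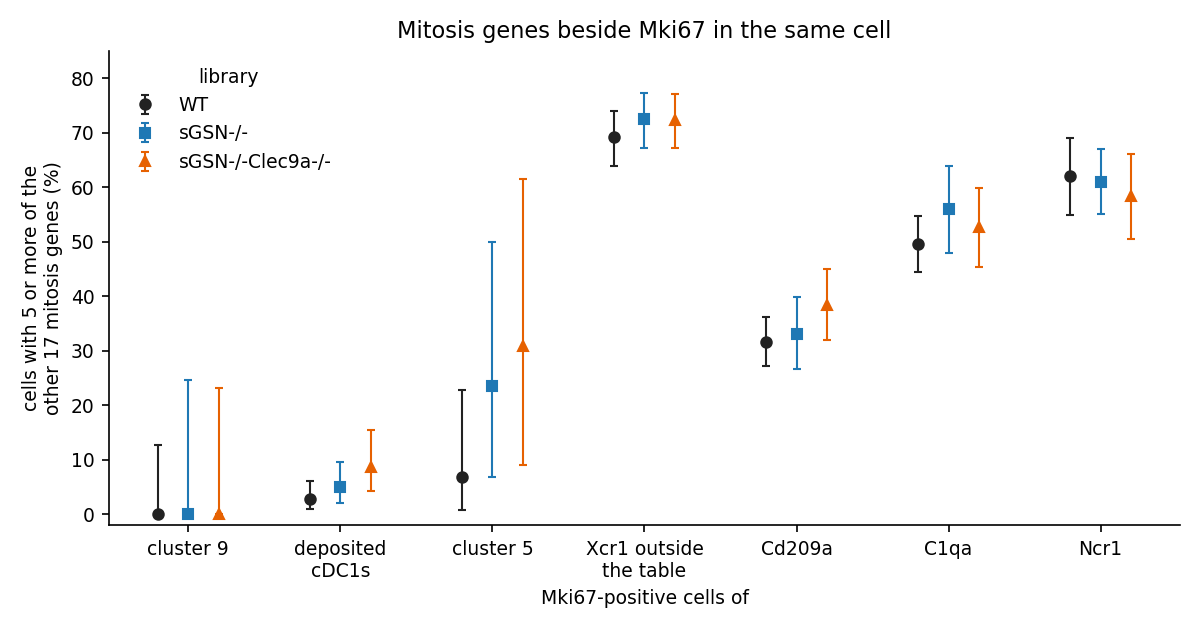
Share of the cells with Mki67 (vertical axis, percent) that held at least 5 of the other 17 mitosis genes, in each population (horizontal axis). Each library has 1 point, and bars are exact 95% intervals of that library. With the cells of 3 libraries together, which is not drawn, the share was 4.96% in deposited cDC1s and 71.3% in Xcr1 cells outside the table.

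Levels of the other members followed Mki67 from cell to cell, though not equally. In Xcr1 cells, the ratio of CPM in cells with Mki67 to CPM in cells without it had a median of 19.5 over the other 39 genes and ran from 1.59 (H2afz) to 128.6. The medians were 21.7 in Cd209a cells, 14.4 in C1qa cells and 19.3 in Ncr1 cells, and 2.29 in deposited cDC1s (38 genes, as Anln has no ratio there). For Top2a the ratio was 46.8 ± 5.22 in Xcr1 cells and 4.82 ± 2.54 in deposited cDC1s. Pcna reached 2.71 in Xcr1 cells and 1.06 ± 0.128 in deposited cDC1s, and Hmgb2, a chromatin protein that is most abundant in dividing cells, 6.8 and 1.69. Synthesis genes outweighed mitosis genes by 7.24 in Xcr1 cells without Mki67 and by 1.18 in those with it, and the like held in Ncr1 cells, with 8.66 and 1.24.

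Cd209a cells expressed nearly every member at a lower level than Xcr1 cells did. All 14 synthesis genes, 16 of 18 mitosis genes and 7 of 8 chromatin and tubulin genes were called lower. The gap was widest for Rrm2, H2afx and Cdk1. Tuba1b and Anln stood at like levels in both. The comparison sets the Cd209a cells beside the cDC1s of the same tumours. The plasmacytoid list stood at 770.2, 1144.1 and 820.5 CPM in Cd209a cells against 339.8, 384.3 and 350.1 CPM in Xcr1 cells, and the pre-cDC list at a mean of 340.4 against 177.0 CPM. Neither list is specific, since deposited cDC1s reached 900.3 ± 20.2 CPM of the former in cluster 7 and 407.1 ± 34.1 CPM of the latter in cluster 6.

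Rrm2, the subunit of ribonucleotide reductase that is made in S phase, stood at 28.5, 37.9 and 32.2 CPM in Xcr1 cells and at 12, 14.3 and 18.2 CPM in Cd209a cells, and fell by 1.25 on the log2 scale (SE 0.17, edgeR adjusted p = 2.5e-05). H2afx, the histone variant that marks DNA breaks, went from 79.6, 100.9 and 95.1 CPM to 38.8, 44.2 and 40.8 CPM and fell by 1.25 (SE 0.15, adjusted p = 6.3e-06). Cdk1, the kinase that drives entry into mitosis, went from 22.0, 29.3 and 28.8 CPM to 11.9, 12.8 and 13.7 CPM and fell by 1.16 (SE 0.18, adjusted p = 8.6e-05). For each of the 3 genes, every Cd209a library lay below every Xcr1 library. Such separations, here and below, are those of named genes, many of them named for their large changes. The share of all genes tested that were apart in this way is not given. Pclaf, which binds PCNA at the replication fork, stood at 96.9, 130.4 and 105.6 CPM in Xcr1 cells against 49.3, 68.7 and 56.5 CPM, and fell by 1.03 (SE 0.15, adjusted p = 4.2e-05). Pcna, at 132.8, 146.0 and 156.3 CPM against 99.1, 106.4 and 114.0 CPM, fell by 0.54 (SE 0.09, adjusted p = 9.3e-05), and H2afz, at 2604.4, 2874.3 and 2693.5 CPM against 1454.7, 1544.2 and 1456.8 CPM, fell by 0.97 (SE 0.05, adjusted p = 1e-09). Again the libraries of the 2 populations did not overlap.

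Mki67 stood at 65.6, 94.7 and 90.4 CPM in Xcr1 cells and at 44.8, 55.5 and 54.6 CPM in Cd209a cells, and fell by 0.79 (SE 0.17, adjusted p = 0.001). Top2a, at 79.7, 116.0 and 99.4 CPM against 48.5, 66.2 and 57.8 CPM, fell by 0.88 (SE 0.2, adjusted p = 0.0018). Hist1h2ap, a histone H2A gene made in S phase, was at 608.8, 520.2 and 592.3 CPM against 365.2, 291.0 and 362.5 CPM and fell by 0.85 (SE 0.23, adjusted p = 0.0058). All 3 genes were lower in Cd209a cells in 3 of 3 libraries. The histone genes of 1 class are near-identical copies, so that the split of UMIs among them is uncertain. Mcm2, a subunit of the replicative helicase, had the smallest fall among the synthesis genes, 0.46 (SE 0.1, adjusted p = 0.0013), from 13.8, 13.3 and 14.5 CPM to 10.6, 10 and 11.6 CPM. Anln (anillin, of the cleavage furrow) was at 3.54, 5.66 and 5.28 CPM against 3.56, 5.13 and 5.65 CPM (log2 change -0.14, SE 0.25, adjusted p = 0.67), and Tuba1b, an alpha-tubulin, at 256.6, 288.3 and 256.1 CPM against 260.9, 266.0 and 245.9 CPM (-0.15, SE 0.08, adjusted p = 0.12). Their libraries overlapped.

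Of the 40 members, 37 were lower in Cd209a cells at an adjusted p under 0.05 by edgeR, where 28% of all 13056 genes tested were lower, and 0 were higher, where 27.7% of all genes were. At an unadjusted p under 0.05 the calls were the same in number, all 37 lower, and DESeq2 gave 37 lower and 0 higher. The members' median log2 change was -0.8, and that of all genes -0.01. By role, 16 of 18 mitosis genes (median -0.84), 14 of 14 synthesis genes (-0.65) and 7 of 8 chromatin and tubulin genes (-0.9) were lower. Prc1, which bundles the spindle midzone, was the third gene not called, at -0.5 (SE 0.27, adjusted p = 0.13), and passed with the library as a block (-0.48, adjusted p = 0.039). When cells with several markers were counted in each group whose marker they held, 20 of the 40 members were called. The calls of Mki67 (-0.43, adjusted p = 0.15), Top2a (-0.49, 0.1) and Mcm2 (-0.23, 0.063) were lost. The share of all genes called in that fit is not given, so that the count of 20 has no background beside it. Without TMM factors 61.3% of the genes called were higher in Cd209a cells, against 49.7% with them, and 36 members were lower.

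Fewer members were called between C1qa and Xcr1 cells than in the other 2 comparisons. Anln was higher in C1qa cells, and the histone variants H2afz and H2afx were lower. Mki67, Top2a and most other members were not called, though 18 of the 40 were called with the library as a block. The 17 mitosis genes other than Mki67 summed to more in C1qa cells in every library. They stood at 358.2, 642.4 and 584.4 CPM, against 332.3, 522.3 and 484.6 CPM in Xcr1 cells. The comparison sets macrophage-like cells of the sort beside the cDC1s.

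Anln stood at 7.71, 14.1 and 11.5 CPM in C1qa cells against 3.54, 5.66 and 5.28 CPM in Xcr1 cells, and rose by 1.06 (log2, SE 0.24, adjusted p = 0.0016). H2afz, at 1320.4, 1473.1 and 1392.2 CPM in C1qa cells, fell by 1.07 (SE 0.05, adjusted p = 2.4e-10), and H2afx, at 37, 57.6 and 60.2 CPM, fell by 0.95 (SE 0.15, adjusted p = 7.7e-05). Each of these differences was seen in all 3 libraries without overlap. Hmgb2, at 589.6, 712.1 and 704.2 CPM against 734.6, 870.6 and 898.3 CPM, fell by 0.42 (SE 0.09, adjusted p = 0.00094) and did not overlap either. Mki67, by contrast, was at 66.4, 105.5 and 104.4 CPM in C1qa cells (log2 change 0.03, SE 0.17, adjusted p = 0.89), Top2a at 67.8, 122.5 and 109.1 CPM (-0.09, SE 0.2, adjusted p = 0.71) and Pclaf at 82.9, 119.3 and 108.8 CPM (-0.2, SE 0.15, adjusted p = 0.25), all within the range of the Xcr1 libraries or overlapping it. Both populations were lowest for Mki67 and Top2a in the WT library.

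Of the 40 members, 5 were higher in C1qa cells (29.3% of all genes tested were) and 5 lower (30.6% of all genes). Their median was 0.03, and that of all genes -0.01. The 5 higher genes were Anln, Tk1 (thymidine kinase, 0.47, SE 0.16, adjusted p = 0.018), Ccnb2 (cyclin B2, 0.42, SE 0.15, adjusted p = 0.023), Lig1 (the ligase of the lagging strand, 0.26, SE 0.09, adjusted p = 0.019) and Mcm2 (0.25, SE 0.1, adjusted p = 0.045). The 5 lower genes were H2afz, H2afx, Rrm2 (-0.48, SE 0.17, adjusted p = 0.024), Hmgb2 and Hells (a helicase of chromatin remodelling, -0.25, SE 0.09, adjusted p = 0.026). Ccnb2, Lig1, Mcm2, Hmgb2 and Hells were named after their values were seen, to complete the count. By role, 2 mitosis genes were higher and 0 lower (median 0.17), 3 synthesis genes higher and 2 lower (0.01), and 0 chromatin and tubulin genes higher and 3 lower (-0.19).

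This count rested on few libraries. Without the sGSN-/- library 4 of the 10 genes, Anln, H2afz, H2afx and Hmgb2, passed, and Tk1 (0.5, adjusted p = 0.08), Ccnb2 (0.4, 0.13), Lig1 (0.3, 0.058), Mcm2 (0.18, 0.26), Rrm2 (-0.46, 0.12) and Hells (-0.3, 0.072) did not, while Ccnb2 (0.29, 0.059) and Mcm2 (0.32, 0.07) failed without the WT library and Tk1 (0.4, 0.091) and Hells (-0.16, 0.15) without the sGSN-/-Clec9a-/- library. With the library as a block 18 members passed (8 gained and 0 lost), among them Prc1 (0.5, adjusted p = 0.027, against 0.53, SE 0.26, adjusted p = 0.1) and Pcna (-0.15, 0.0067, against adjusted p = 0.15). The share of all genes called with the block is not given, so that this count has no background beside it. Without TMM factors 9 members were higher and 3 lower, with 59.3% of all calls higher against 48.9%. Prc1 also passed without the WT library (0.7, adjusted p = 0.0011). When cells with several markers were counted in each of their groups, 4 members were called.

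Ncr1 cells held most members at a higher level than Xcr1 cells did, in all 3 roles. Dut, Hist1h1b and Hist1h2ap were raised most, and Mki67 and Top2a were raised as well. H2afz went the other way. NK cell genes defined these cells, which passed a sort that was gated against NK1.1 and Cd3e. The T cell list stood at 84.4, 100.3 and 105.7 CPM in Ncr1 cells against 7.46, 15.2 and 10.5 CPM in Xcr1 cells. Its part was not tested.

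Dut, the enzyme that keeps uracil out of DNA, stood at 299.9, 276.9 and 255.8 CPM in Ncr1 cells against 71.4, 87.2 and 78.6 CPM in Xcr1 cells and rose by 1.58 (log2, SE 0.08, adjusted p = 6.7e-10). Hist1h1b, a linker histone, at 590.6, 583.1 and 538.9 CPM against 144.4, 219.4 and 174.1 CPM, rose by 1.44 (SE 0.25, adjusted p = 0.00012), and Hist1h2ap, at 2605.2, 1259.8 and 1558.4 CPM in Ncr1 cells, by 1.42 (SE 0.23, adjusted p = 7.6e-05). For these genes every Ncr1 library exceeded every Xcr1 library. Mcm6, of the replicative helicase, at 153.5, 149.6 and 120.3 CPM against 43.8, 46.8 and 45.8 CPM, rose by 1.4 (SE 0.07, adjusted p = 5.6e-10). Top2a, at 276.0, 259.8 and 187.7 CPM, rose by 1.06 (SE 0.2, adjusted p = 0.00025) and Pclaf, at 272.0, 229.2 and 197.1 CPM, by 0.83 (SE 0.15, adjusted p = 0.00016). Both were lowest in the sGSN-/-Clec9a-/- library and still exceeded all Xcr1 libraries.

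Mki67 stood at 163.0, 162.5 and 140.9 CPM in Ncr1 cells and rose by 0.66 (SE 0.17, adjusted p = 0.0026), and Pcna, at 218.1, 232.3 and 229.3 CPM, rose by 0.41 (SE 0.09, adjusted p = 0.00071). H2afz fell by 1.12 (SE 0.05, adjusted p = 9.5e-11) to 1484.7, 1506.9 and 1451.6 CPM. H2afz was thus highest in Xcr1 cells, and every library of the other 3 populations lay between 1320.4 and 1544.2 CPM. Tuba1b, at 409.3, 366.8 and 317.7 CPM, rose by 0.21 (SE 0.08, adjusted p = 0.023), and the call was lost without the WT library (0.1, adjusted p = 0.26). H2afx, at 116.2, 107.4 and 89.8 CPM, overlapped the Xcr1 libraries (-0.05, SE 0.15, adjusted p = 0.78, and -0.22, adjusted p = 0.031 without the WT library), as did Anln, at 9.0, 6.77 and 5.53 CPM (0.34, SE 0.27, adjusted p = 0.28).

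Of the 40 members, 35 were higher in Ncr1 cells (34.9% of all genes tested) and 1 lower (35.2% of all genes), with a median of 0.88 against 0.02 for all genes. By role, 15 of 18 mitosis genes were higher and 0 lower (median 0.79), 14 of 14 synthesis genes higher (1.06), and 6 of 8 chromatin and tubulin genes higher and 1 lower (0.95). Ube2c (an E2 enzyme of the anaphase-promoting complex, 0.69, SE 0.31, adjusted p = 0.057) and Ccnb1 (cyclin B1, 0.61, SE 0.29, adjusted p = 0.081) missed the threshold and passed with the library as a block (adjusted p = 0.0022 and 0.00086). The call of Mki67 was lost when cells with several markers were counted in each of their groups (0.44, adjusted p = 0.12). Ncr1 cells also moved most with the scaling, as the median of all genes shifted from 0.02 to 0.26 without TMM factors and to 0.2 with DESeq2, and 63.9% of the calls were then higher without TMM factors, against 49.8%. The members' medians were 1.12 and 0.86 in these fits. The 3 comparisons share the Xcr1 libraries and are not independent of each other.

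**Figure D3:**
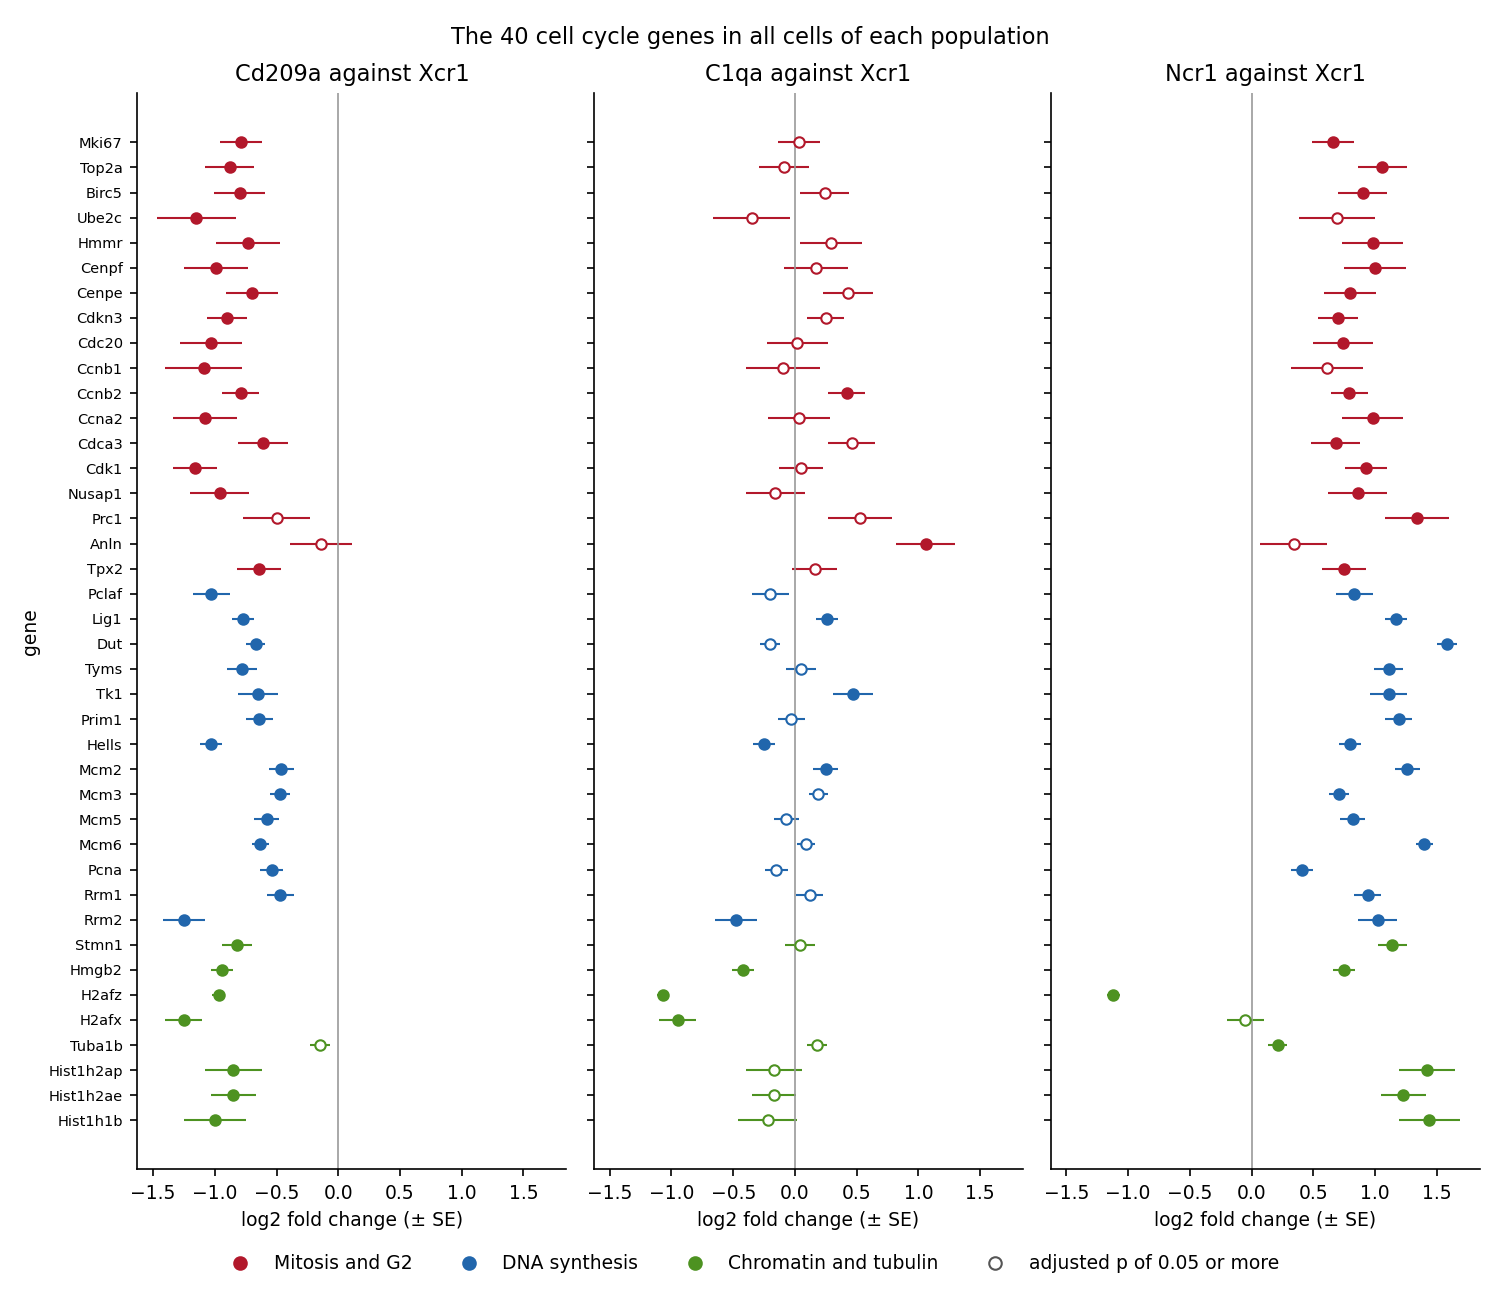
Log2 change of each of the 40 members (1 per position) in Cd209a, C1qa and Ncr1 cells against Xcr1 cells, over all cells and 3 libraries, with SE as bars and colours for the 3 roles; open symbols have an edgeR adjusted p of 0.05 or more. The median was -0.8 in Cd209a cells, 0.03 in C1qa cells and 0.88 in Ncr1 cells.

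Among the cells with Mki67 alone, the members' medians were nearer to 0 in Cd209a and Ncr1 cells, and farther from it in C1qa cells. In these cells, all selected by the same transcript, 39 members remain, and Mki67 itself is not tested. Cd209a cells still held less of most members, C1qa cells held less of 8 of the 14 synthesis genes and of 4 of the 8 chromatin and tubulin genes, and Ncr1 cells held more of 11 synthesis genes and of 5 chromatin and tubulin genes, though less of H2afz.

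In Cd209a cells with Mki67, Top2a stood at 207.6, 246.4 and 264.6 CPM against 313.7, 378.4 and 353.0 CPM in Xcr1 cells with Mki67, and fell by 0.59 (SE 0.14, adjusted p = 0.0027). H2afx, at 107.8, 109.5 and 123.3 CPM against 205.0, 251.6 and 248.9 CPM, fell by 1.1 (SE 0.16, adjusted p = 3.6e-05), and Hmgb2, at 1131.9, 1141.0 and 1304.2 CPM against 2047.7, 2179.9 and 2474.3 CPM, fell by 0.95 (SE 0.1, adjusted p = 8.7e-07). Rrm2, at 51.9, 55.1 and 85.7 CPM against 116.0, 123.5 and 114.2 CPM, fell by 0.94 (SE 0.14, adjusted p = 5.6e-05). None of these genes overlapped between the populations. Pclaf fell by 0.68 (SE 0.09, adjusted p = 1.6e-05) and Pcna by 0.45 (SE 0.1, adjusted p = 0.0015), each lower in 3 of 3 libraries. Hist1h2ap fell by 0.6 (SE 0.23, adjusted p = 0.047), a call lost without the WT library (-0.54, 0.16) or the sGSN-/-Clec9a-/- library (-0.72, 0.057). Mcm2 was not called (-0.25, SE 0.1, adjusted p = 0.062) but was with the library as a block (-0.26, 0.046).

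Of the 39 members, 32 were lower in Cd209a cells with Mki67 (19.6% of 11080 genes tested) and 0 higher (22.2% of all genes), with a median of -0.55 against 0.0. At an unadjusted p under 0.05, edgeR gave 35 calls, all lower, and DESeq2 gave 30 lower and 0 higher. Without the sGSN-/- library 21 were called. By role, 11 of 17 mitosis genes, 13 of 14 synthesis genes and 8 of 8 chromatin and tubulin genes were lower.

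In C1qa cells with Mki67, H2afx stood at 80.3, 129.3 and 146.3 CPM and fell by 1.07 (SE 0.16, adjusted p = 3.7e-05), and H2afz, at 2054.1, 2307.7 and 2238.9 CPM against 3455.6, 3890.0 and 3889.2 CPM, fell by 0.83 (SE 0.07, adjusted p = 6.7e-08). Rrm2, at 65.9, 83.1 and 82.2 CPM, fell by 0.69 (SE 0.14, adjusted p = 0.00071), and Pclaf, at 275.2, 346.3 and 310.7 CPM against 389.0, 422.3 and 370.0 CPM, fell by 0.41 (SE 0.09, adjusted p = 0.0015). All 4 genes were lower than in any Xcr1 library. Anln, at 22.3, 39.1 and 31.1 CPM against 14.5, 18.6 and 19.7 CPM, rose by 0.71 (SE 0.21, adjusted p = 0.01), which failed without the sGSN-/- library (0.55, 0.12). Pcna fell by 0.26 (SE 0.1, adjusted p = 0.038), which failed without the WT library (-0.26, 0.11) or the sGSN-/- library (-0.33, 0.083). Top2a (-0.29, SE 0.14, adjusted p = 0.098) and Hist1h2ap (-0.36, SE 0.23, adjusted p = 0.21) were called with the library as a block (-0.3, 0.025, and -0.38, 0.0042), and so was Cdca3 (0.25, SE 0.15, adjusted p = 0.17, against 0.26, 0.0065 in the block).

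Of the 39 members, 1 was higher in C1qa cells with Mki67 (24.2% of all genes tested) and 12 lower (23.1%), with a median of -0.18, and 20 were called with the library as a block. Without TMM factors 2 were higher and 7 lower. The lower genes were 8 of 14 synthesis genes and 4 of 8 chromatin and tubulin genes, and the 1 higher gene was Anln.

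In Ncr1 cells with Mki67, Dut stood at 482.1, 450.5 and 468.2 CPM against 182.2, 193.4 and 179.0 CPM in Xcr1 cells with Mki67, and rose by 1.17 (SE 0.08, adjusted p = 2.2e-09). Hist1h1b, at 1298.5, 1399.9 and 1512.9 CPM against 585.1, 714.0 and 619.4 CPM, rose by 0.97 (SE 0.19, adjusted p = 0.00043), and Hist1h2ap, at 5660.5, 2990.0 and 4317.7 CPM against 2405.5, 1681.3 and 2099.6 CPM, by 0.9 (SE 0.23, adjusted p = 0.0032). Top2a, at 585.7, 587.0 and 497.0 CPM, rose by 0.51 (SE 0.14, adjusted p = 0.0044). H2afz, at 2011.3, 2056.3 and 2073.0 CPM, fell by 1.04 (SE 0.07, adjusted p = 2.9e-09). The libraries of both populations were apart for all 5 genes, with no share of all genes beside it. Pclaf rose by 0.3 (SE 0.09, adjusted p = 0.008), a call lost without the sGSN-/-Clec9a-/- library (0.27, 0.06), at 4000 UMIs per cell (0.25, 0.14) and among cells with at least 2 Mki67 UMIs (0.18, 0.11). Pcna was not called (0.21, SE 0.1, adjusted p = 0.072), but was with the library as a block (0.22, 0.009) and without the sGSN-/-Clec9a-/- library (0.25, 0.016). H2afx (-0.33, SE 0.15, adjusted p = 0.074) was also called in the block (-0.32, 0.026).

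Of the 39 members, 25 were higher in Ncr1 cells with Mki67 (29.5% of all genes tested) and 1 lower (30.6%), with a median of 0.42 against 0.01 for all genes, which shifted to 0.18 without TMM factors and to 0.21 with DESeq2. The split of all calls moved from 49.1% to 61.1% higher without TMM factors. By role, 9 of 17 mitosis genes, 11 of 14 synthesis genes and 5 of 8 chromatin and tubulin genes were higher.

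Cells chosen by 1 Mki67 UMI are not alike in the 4 populations, since a single UMI was all the evidence in 36.0% of Xcr1 cells with Mki67, 50.4% of Cd209a cells, 39.2% of C1qa cells and 30.3% of Ncr1 cells. Among cells with at least 2 Mki67 UMIs, a choice made after the data were seen, the medians of the members moved to -0.34 in Cd209a cells, -0.15 in C1qa cells and 0.3 in Ncr1 cells. The members called were 0 higher and 18 lower in Cd209a cells, 1 and 8 in C1qa cells, and 19 and 2 in Ncr1 cells. The share of all genes called in this fit is not given, so that these counts have no background beside them.

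Some genes that control entry into the cycle differed widely between the populations, and not always in the direction of the members. Ccnd2 (cyclin D2) was higher than in Xcr1 cells in each of the 3 other populations, Ccnd1 (cyclin D1) was far lower in Ncr1 cells than in Xcr1 cells, and Cdkn1a (p21) was high in Cd209a and C1qa cells. Mycl belonged to Xcr1 cells. Cdkn1b (p27) was highest in Xcr1 cells.

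Ccnd2 stood at 68.9, 86.6 and 62.7 CPM in Xcr1 cells, and at 255.8, 258.7 and 252.3 CPM in Cd209a cells, where it rose by 1.72 (log2, SE 0.08, adjusted p = 6.5e-10). It reached 195.9, 202.6 and 201.4 CPM in C1qa cells (1.36, SE 0.08, adjusted p = 4.8e-09) and 312.9, 289.2 and 313.0 CPM in Ncr1 cells (1.84, SE 0.08, adjusted p = 1.4e-10). Each population exceeded Xcr1 cells in every library. Ccnd1, at 355.4, 359.9 and 361.6 CPM in Xcr1 cells, was at 24.5, 33.1 and 23.2 CPM in Ncr1 cells, where it fell by 3.96 (SE 0.1, adjusted p = 3.4e-13), and at 273.6, 270.3 and 243.1 CPM in C1qa cells, where it fell by 0.55 (SE 0.08, adjusted p = 4.7e-05). As a list they did not stand out in Cd209a cells, since of the 8 G1 cyclins and kinases 2 were higher and 2 lower there (median -0.15), where 27.7% and 28% of all genes tested were. In C1qa cells 4 were higher and 2 lower (0.12, against 29.3% and 30.6% of all genes), and in Ncr1 cells 5 and 2 (0.62, against 34.9% and 35.2%). Ncr1 cells, whose Mki67 level was the highest, had the lowest Ccnd1 of the 4 populations.

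Cdkn1a stood at 160.3, 179.4 and 155.7 CPM in Xcr1 cells, at 625.2, 624.3 and 614.0 CPM in Cd209a cells (1.82, SE 0.06, adjusted p = 1.2e-11) and at 558.7, 612.7 and 540.7 CPM in C1qa cells (1.69, SE 0.06, adjusted p = 1e-11). In Ncr1 cells it was at 129.9, 140.7 and 128.2 CPM and fell by 0.55 (SE 0.06, adjusted p = 8.6e-07). The order of the populations by Cdkn1a was the same in all 3 libraries. Cdkn1b fell from 137.1, 144.0 and 124.9 CPM in Xcr1 cells to 67.9, 68.1 and 63.3 CPM in C1qa cells (-1.13, SE 0.07, adjusted p = 6e-09) and to 73.6, 78.2 and 68.3 CPM in Ncr1 cells (-1.12, SE 0.07, adjusted p = 5.1e-09). Of the 7 kinase inhibitors, 2 were higher and 2 lower in Cd209a cells (median -0.21), which is near the shares of 27.7% and 28% of all genes, 3 and 2 in C1qa cells (0.03, against 29.3% and 30.6%), and 1 and 2 in Ncr1 cells (0.09, against 34.9% and 35.2%).

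Mycl stood at 36.8, 34.7 and 38.0 CPM in Xcr1 cells and at 4.93, 5.85 and 4.17 CPM in Cd209a cells (-2.98, SE 0.11, adjusted p = 4.6e-11), 1.46, 1.61 and 0.785 CPM in C1qa cells (-4.89, SE 0.15, adjusted p = 3.5e-12) and 0.808, 1.04 and 0.83 CPM in Ncr1 cells (-5.55, SE 0.17, adjusted p = 2.8e-12). Myc took the opposite course, from 11.7, 11.5 and 11.5 CPM in Xcr1 cells to 26.7, 22.4 and 23.4 CPM in C1qa cells (0.98, SE 0.1, adjusted p = 1.2e-06) and 26.1, 22.2 and 23.9 CPM in Ncr1 cells (0.81, SE 0.11, adjusted p = 1e-05). Of 3 MYC family genes tested out of 4, 1 was higher and 2 lower in Cd209a cells (median -0.2, against 27.7% and 28% of all genes) and in C1qa cells (-0.54, against 29.3% and 30.6%), and 1 higher and 1 lower in Ncr1 cells (0.1, against 34.9% and 35.2%). The differences in Ccnd2, Cdkn1b and Mycl were also called among the cells with Mki67, with log2 changes of 1.71, 1.21 and 1.32 for Ccnd2, -0.43, -1.0 and -1.35 for Cdkn1b, and -3.19, -4.52 and -6.49 for Mycl in Cd209a, C1qa and Ncr1 cells. At 4000 UMIs per cell the call of Cdkn1b in Cd209a cells was lost (-0.3, adjusted p = 0.18).

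Factors that act on the promoters of the members were not uniform. Of the 17 RB, E2F and MuvB genes, 3 were higher and 8 lower in Cd209a cells (median -0.29, against 27.7% and 28% of all genes), 6 and 3 in C1qa cells (-0.04, against 29.3% and 30.6%), and 10 and 4 in Ncr1 cells (0.39, against 34.9% and 35.2%). Rbl2 (p130, of the repressing DREAM complex) stood at 11.3, 11.5 and 11.5 CPM in Xcr1 cells and at 47.1, 52.1 and 47.2 CPM in Ncr1 cells, where it rose by 1.86 (SE 0.07, adjusted p = 1.6e-11). Lin54, the DNA-binding subunit of MuvB, rose by 1.09 in Cd209a cells (SE 0.09, adjusted p = 2.2e-07), and E2f7 fell by 1.16 there (SE 0.19, adjusted p = 0.00013), each in 3 of 3 libraries.

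Most cell cycle genes outside the list of members were lower in Cd209a cells and higher in Ncr1 cells, as the members were, and few were called in C1qa cells. Over all genes tested, 27.7% were higher and 28% lower in Cd209a cells, 29.3% and 30.6% in C1qa cells, and 34.9% and 35.2% in Ncr1 cells. Of 26 further synthesis genes, 23 were lower and 0 higher in Cd209a cells (median -0.49), 4 higher and 1 lower in C1qa cells (0.08), and 26 higher in Ncr1 cells (0.96). Of 33 further mitosis genes, 2 were higher and 26 lower in Cd209a cells (-0.76), 2 and 5 in C1qa cells (-0.04), and 27 and 2 in Ncr1 cells (0.74). Of 9 further histone genes, 6 were lower in Cd209a cells, 8 were higher in Ncr1 cells, and 0 were called in C1qa cells, where 0 had an unadjusted p under 0.05 in edgeR. Cks2, a small subunit of CDK complexes, went against its list, from 40.3, 53.8 and 53.4 CPM in Xcr1 cells to 85.3, 89.4 and 101.2 CPM in Cd209a cells (0.81, SE 0.13, adjusted p = 0.00015). Pttg1 (securin, the guard of sister chromatids) and Ckap2l (-0.65, SE 0.21, adjusted p = 0.013) fell in Ncr1 cells, against most of their list, Pttg1 from 49.7, 51.1 and 47.9 CPM to 35.5, 34.6 and 31.3 CPM (-0.79, SE 0.08, adjusted p = 6.6e-07). The call of Ckap2l in Ncr1 cells was lost without TMM factors (-0.41, adjusted p = 0.11), without the sGSN-/- library (-0.47, 0.13) or the sGSN-/-Clec9a-/- library (-0.48, 0.13), and with markers at 2 or more UMIs (-0.41, 0.079). Cdc25b, a phosphatase that activates CDK1, rose most among them there, from 1.17, 2.49 and 2.08 CPM to 11.8, 12.9 and 11.2 CPM (2.44, SE 0.24, adjusted p = 4.2e-07).

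Among the deposited cDC1s, cluster 5, which the study places with the resting cells and marks by genes of the unfolded protein response, had the highest sum of mitosis genes among the clusters with over 100 cells, and a low sum of DNA synthesis genes. The 17 mitosis genes summed to 133.5, 153.1 and 110.8 CPM in cluster 5, and the means of the other clusters with over 100 cells lay between 18.9 and 54.7 CPM. Its synthesis genes summed to 171.2 ± 13.9 CPM, the lowest mean of these clusters, next to 177.4 ± 42.2 CPM in cluster 8, which was lower than cluster 5 in 2 of 3 libraries. Clusters were made from these cells' own expression, so that differences among them are given as levels, with no test.

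Ccnb2 stood at 42.9, 49.3 and 29.1 CPM in cluster 5 (40.5 ± 10.3, in 510 cells), which was 20.4 times the median of the clusters (1.98 CPM), and at 5.8 CPM in cluster 4, the next in order. Cdkn3, a phosphatase that acts on CDK2, was at 11.5, 13.2 and 9.88 CPM, 18.1 times the median, and no other cluster had a mean above 1.84 CPM. For both genes cluster 5 exceeded every other cluster in each library. Ube2c was at 20.6, 31.5 and 23.4 CPM (7.24 times the median), and Cdca3, which helps to trigger mitotic entry, at 9.38, 10.2 and 13.5 CPM (8.59 times). Birc5 (survivin, of the chromosomal passenger complex) was at 16.2, 15.3 and 10.4 CPM (4.65 times), and Cenpf, a kinetochore protein, at 13.0, 7.66 and 4.16 CPM (6.95 times). The level of Cenpf was uneven between libraries, with the WT library highest. Other mitosis genes were not raised, such as Top2a at 4.05 CPM (median of the clusters 6.93), Ccnb1 at 0.467 CPM (1.3), Nusap1 at 0.786 CPM (0.867) and Anln with 0 UMIs, so that the sum rests on a part of its genes. In contrast, Mcm2 at 1.8 CPM, Mcm3 at 7.79 CPM, Mcm5 at 7.0 CPM, Lig1 at 5.12 CPM and Hells at 11.2 CPM had their lowest means of the 12 clusters in cluster 5, though Mcm5 was close to cluster 8 (7.02 CPM). Pclaf (7.14 CPM) was not low, against a median of 6.31 CPM over the clusters. Mki67 was found in 11.3 ± 3.33% of its cells, and 10 of its 59 cells with Mki67 (16.9%) held at least 5 of the other mitosis genes.

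**Figure D4:**
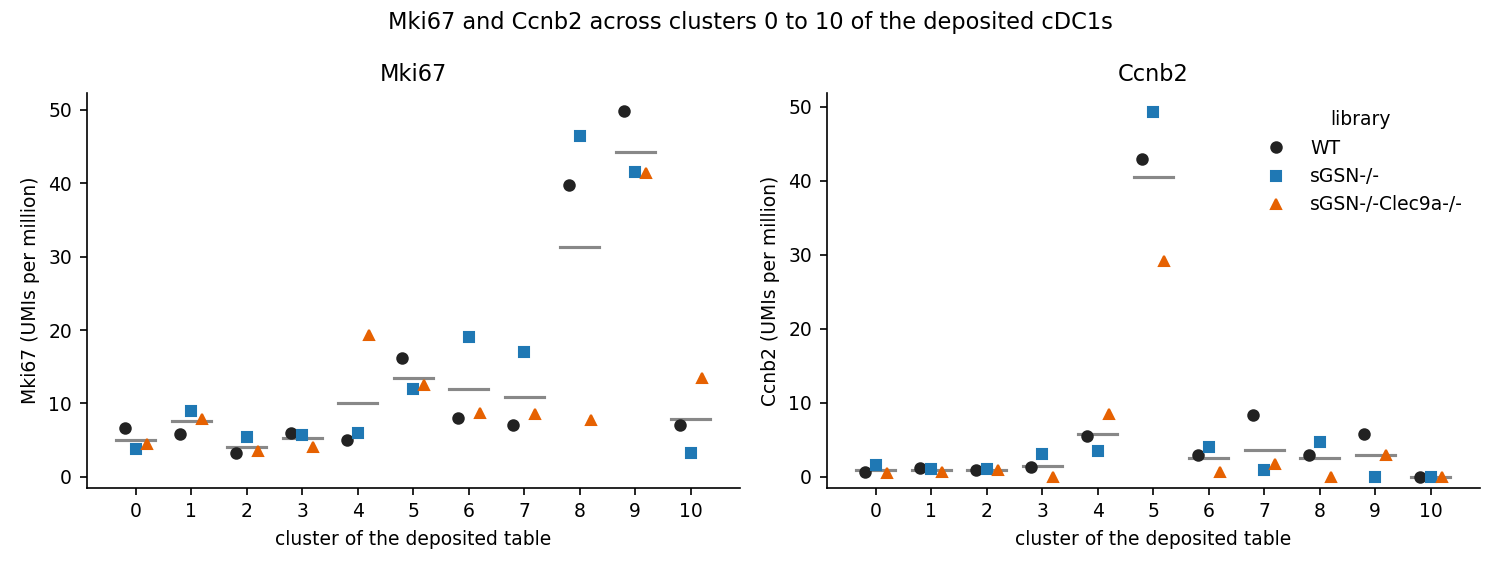
CPM of Mki67 and of Ccnb2 (vertical axes) in clusters 0 to 10 of the deposited cDC1s (horizontal axis), with a point for each of 3 libraries and a line at their mean. By the mean, Mki67 was highest in cluster 9 (44.3 CPM) and Ccnb2 in cluster 5 (40.5 CPM).

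Cluster 9, an activated cluster with Nfkbiz, Dusp2 and Tnfaip3, had the highest mean of Mki67 of the clusters and no more of the other mitosis genes than most of them. In the sGSN-/- library cluster 8 held more Mki67, and in the WT library the small cluster 11 did. Mki67 stood at 49.9, 41.5 and 41.4 CPM in its 162 cells, against a median over clusters of 10.5 CPM, and was detected in 27 of 67, 13 of 40 and 14 of 55 cells (40.3%, 28.5 to 53.0, 32.5%, 18.6 to 49.1, and 25.5%, 14.7 to 39.0). At 4000 UMIs per cell the mean share was 14.2 ± 5.77%, and 15.2 ± 2.6% of the cells held at least 2 UMIs. Top2a, at 8.21 ± 1.29 CPM, was near the median of the clusters (6.93), and at 4000 UMIs per cell it was at 4.06 ± 3.77 CPM, from 3 UMIs. The other 17 mitosis genes summed to 32.0 ± 1.14 CPM, within the range of the other clusters. None of the 54 cells with Mki67 held at least 5 of them (0 of 54 cells, upper bound of the interval 6.6%), and 74.1% held none. Synthesis genes exceeded mitosis genes in these cells by a ratio of 11.9 ± 2.71, which rests on 9, 7 and 10 mitosis UMIs. The ratio was 7.88 ± 2.16 in cluster 9 cells without Mki67. It was 2.99 ± 0.623 in all deposited cDC1s with Mki67, and 1.15 in the Xcr1 cells with Mki67 outside the table. In the whole cluster synthesis genes summed to 292.1 ± 33.4 CPM, more than in any other cluster of over 100 cells but cluster 7.

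Cluster 8, the Ccr7 and Il12b cells, had Mki67 at 39.7, 46.4 and 7.76 CPM, an uneven level that was low in the sGSN-/-Clec9a-/- library, with 20.2%, 16.7% and 7.02% of cells. Of its 40 cells with Mki67, 3 held at least 5 mitosis genes (7.5%). Genes of other cells varied in this cluster as well, with the T cell list at 16.5, 29.1 and 3.88 CPM, which followed the order of Mki67, the NK list at 22.3, 148.0 and 38.8 CPM and the macrophage list at 571.6, 46.4 and 71.8 CPM. Their part was not tested. In the other clusters with over 100 cells the mean of Mki67 lay between 4.06 and 13.5 CPM. Cluster 7, marked by interferon-stimulated genes, led in DNA synthesis at 334.5 ± 21.1 CPM, with Mcm2 (11.2 ± 2.55 CPM), Mcm3 (30.7 CPM) and Mcm5 (18.1 CPM) at their highest, close to cluster 9 for Mcm3 (30.1 CPM) and Mcm5 (17.4 CPM). Pcna was highest in cluster 6, at 146.4, 146.8 and 123.0 CPM, which was 1.66 times the median. H2afz ran from 868.0 CPM in cluster 11, 60 cells that the study takes as likely dying, to 3214.7 ± 149.4 CPM in cluster 0.

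Genotypes are 1 library each, so that differences between them have no replicate and were not tested. Mki67 stood at 9.24 (Poisson 95% interval 8.23 to 10.3), 11.1 (9.77 to 12.5) and 8.66 CPM (7.46 to 10) in the deposited cDC1s, and the 3 intervals overlapped. In Xcr1 cells outside the table it stood at 234.9 (225.9 to 244.2), 287.8 (277.5 to 298.4) and 269.5 CPM (259.3 to 280.0), where the WT interval lay below the other 2. These intervals count UMIs and leave out the spread between cells, so that they are too narrow to set libraries apart. Counted by cells with Mki67, the WT interval (53.2 to 61.5%) overlapped those of the other libraries (60.5 to 69.1% and 54.6 to 63.0%). The WT library had the lowest sum of mitosis genes in Xcr1, Cd209a and C1qa cells, with 332.3 against 522.3 and 484.6 CPM in Xcr1 cells, 216.7 against 298.6 and 278.5 CPM in Cd209a cells and 358.2 against 642.4 and 584.4 CPM in C1qa cells. In Ncr1 cells the sGSN-/-Clec9a-/- library was lowest, with 1046.4, 1060.7 and 834.6 CPM. The synthesis genes varied less, with 639.6, 747.5 and 712.1 CPM in Xcr1 cells.

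The members are spread over the genome, with 5 on chromosome 2 and 4 each on chromosomes 7, 9, 11 and 13. Mki67 (ENSMUSG00000031004) lies on the minus strand of chromosome 7 (chr7:135689784-135716361), Top2a (ENSMUSG00000020914) on the minus strand of chromosome 11 (chr11:98992943-99024189), Ccnb2 (ENSMUSG00000032218) on the minus strand of chromosome 9 (chr9:70407692-70421547) and H2afz (ENSMUSG00000037894) on the plus strand of chromosome 3 (chr3:137864487-137866922), in GRCm38.

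The promoters of the synthesis genes held fewer CHR elements and more E2F sites than those of the other 2 roles, which were alike, though chromatin and tubulin genes were only 5 and no difference was tested. RefSeq promoters of 300 bases (GRCm38.p6) were found for 36 members and searched on both strands for CHR elements (TTTGAA, also with C as the third base), CCAAT boxes and E2F sites (TTTCCCGC, TTTCGCGC, TTTGCCGC, TTTGGCGC and their reverse complements GCGGGAAA, GCGCGAAA, GCGGCAAA, GCGCCAAA). Of 17 mitosis genes, 12 held a CHR element (70.6%), 14 a CCAAT box (82.4%), 11 both (64.7%) and 1, Cdk1, an E2F site (5.88%). Of 14 synthesis genes, 1 held a CHR element (7.14%), 9 a CCAAT box (64.3%) and 6 an E2F site (42.9%), namely Pclaf, Lig1, Hells, Mcm3, Mcm5 and Mcm6. Of 5 chromatin and tubulin genes, 3 held a CHR element (60.0%), 4 a CCAAT box (80.0%) and 0 an E2F site. Among the promoters of 27025 genes, 21.7% held a CHR element, 41.1% a CCAAT box, 8.61% both and 2.6% an E2F site. A match describes the letters of the window and shows no binding.

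The first 250 bases of 6 of these promoters, upstream of the start, are printed 5′ to 3′ on the strand of the gene, with the matches in capitals. They were picked by hand, with Mki67 and Top2a for the cycling cells, Ccnb2 and Cdkn3 for cluster 5, Mcm6 for DNA synthesis, and H2afz, which fell in Ncr1 cells where most members rose. These promoters do not stand for their roles. Dut and Rrm2, the synthesis genes with the largest changes in Ncr1 and Cd209a cells, hold no E2F site. Mki67 (chr7:135716380-135716629, minus) held 2 CHR elements and 3 CCAAT boxes, Top2a (chr11:99024190-99024439, minus) 4 and 6, Ccnb2 (chr9:70421555-70421804, minus) 1 and 3, and Cdkn3 (chr14:46760291-46760540, plus) 1 and 3. Mcm6 (chr1:128359706-128359955, minus) held 3 E2F sites, of which TTTGGCGC and GCGCGAAA overlap, and 2 CCAAT boxes, and H2afz (chr3:137864237-137864486, plus) 2 CCAAT boxes.
Mki67: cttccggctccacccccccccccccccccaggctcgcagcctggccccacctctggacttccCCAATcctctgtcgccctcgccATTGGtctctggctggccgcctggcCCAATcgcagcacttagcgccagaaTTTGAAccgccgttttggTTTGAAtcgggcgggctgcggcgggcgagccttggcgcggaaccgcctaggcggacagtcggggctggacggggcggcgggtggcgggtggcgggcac
Top2a: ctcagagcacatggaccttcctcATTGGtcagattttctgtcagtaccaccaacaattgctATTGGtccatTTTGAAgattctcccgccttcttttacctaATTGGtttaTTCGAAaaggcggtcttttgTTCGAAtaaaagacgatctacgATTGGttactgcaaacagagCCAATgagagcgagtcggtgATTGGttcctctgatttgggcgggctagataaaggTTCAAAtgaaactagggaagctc
Ccnb2: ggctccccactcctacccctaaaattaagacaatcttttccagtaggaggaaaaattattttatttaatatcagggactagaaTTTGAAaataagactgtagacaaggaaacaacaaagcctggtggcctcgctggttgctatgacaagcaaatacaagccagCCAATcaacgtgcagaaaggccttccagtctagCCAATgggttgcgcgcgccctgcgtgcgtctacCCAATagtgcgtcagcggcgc
Cdkn3: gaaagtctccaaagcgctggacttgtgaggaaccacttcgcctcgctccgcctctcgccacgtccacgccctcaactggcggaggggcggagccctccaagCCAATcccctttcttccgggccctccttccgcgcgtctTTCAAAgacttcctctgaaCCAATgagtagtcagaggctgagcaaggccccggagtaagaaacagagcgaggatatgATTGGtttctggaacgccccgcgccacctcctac
Mcm6: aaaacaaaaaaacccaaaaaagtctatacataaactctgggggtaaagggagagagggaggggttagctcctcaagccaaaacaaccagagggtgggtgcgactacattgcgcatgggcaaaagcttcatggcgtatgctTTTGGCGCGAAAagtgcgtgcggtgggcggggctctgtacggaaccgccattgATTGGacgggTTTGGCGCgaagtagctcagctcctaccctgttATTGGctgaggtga
H2afz: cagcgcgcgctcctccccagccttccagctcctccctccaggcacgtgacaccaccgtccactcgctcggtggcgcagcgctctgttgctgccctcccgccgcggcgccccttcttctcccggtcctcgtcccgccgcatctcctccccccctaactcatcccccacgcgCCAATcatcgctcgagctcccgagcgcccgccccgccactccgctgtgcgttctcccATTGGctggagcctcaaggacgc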

How the data were processed

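For each library the authors provided unscaled UMI counts for every gene in every cell, made with Cell Ranger 6.0.1 on mm10 (GRCm38), and a table of cDC1s that they clustered with Seurat (4.0.0 by the record, version 3 by the paper's methods) after leaving out proliferating, dying, T, NK and plasmacytoid cells. The deposited counts carry no normalisation. Here they were summed per library and population, and expressed as counts per 1000000 UMIs (CPM) of that sum. Differences between sums were fitted by edgeR 4.0.16 under R 4.3.3 (filterByExpr, TMM factors, quasi-likelihood F-test, all 4 populations in 1 fit) over all genes tested, with Benjamini-Hochberg adjustment at 0.05, and the 3 libraries, though of different genotype, served as replicates of a population. The p-values measure the spread between these libraries only. Cells with the marker of 1 population at 1 or more UMIs were used, and clusters and genotypes were not tested. The test was checked on simulated data with known changes in Cd209a cells. The simulated counts had no library effect, so that the check does not cover sums that share a library.

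The sums of 1 library come from the same pooled mice, and their deviations from the population means correlated within a library at 0.065 to 0.331 over 13056 genes in all cells and at -0.0295 to 0.258 in cells with Mki67. The library is therefore taken to pair the sums, and a fit with it as a block is given beside a result where it changes the call. Other alternatives, all but 1 written down before the files were opened but with earlier results known, were DESeq2 1.42.0, plain library sizes in place of TMM factors, every gene with a count kept, only the 2 populations compared, each library left out, markers at 2 or more UMIs, groups that may overlap, at least 2000 genes, mitochondrial shares above 16.7% left out, the highest 6% of doublet scores left out (Scrublet in scanpy 1.11.5, whose own threshold called 466, 0 and 0 cells), 4000 UMIs per cell and, added later, cells with at least 2 Mki67 UMIs. Genes named by rule were Mki67, Top2a, Pclaf, Pcna, H2afz and Hist1h2ap, the 3 smallest and 3 largest log2 changes among members, and up to 2 called genes in each direction of each further list (not all of these are printed). Beyond the rule, members were named after their values were seen, namely Prc1 in Cd209a cells, Ccnb2, Lig1, Mcm2, Hmgb2 and Hells in C1qa cells, and Mcm6, Ube2c, Ccnb1 and Anln in Ncr1 cells. The members and lists were chosen with earlier results of these data known.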

Additional observations from a re-analysis of the deposited data

Results flagged for a closer look

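Cells set aside before the main comparisons also held Mki67. The limits given are those of a count of 0, which any detection passes. Among cells outside the deposited table with none of the 4 markers, 713 of 4221 held it (16.9%, against a limit of 0.0711%). Cells with several markers held it in 1260 of 3498 cases (36.0%, limit 0.0858%), and 29.4%, 30.4% and 29.0% of them were among the highest doublet scores of the 3 libraries, whose part was not tested. Among cells with fewer than 1000 genes, whose library medians had a mean of 1142.3 UMIs, 286 of 3526 held it (8.11%, limit 0.0851%).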

How the results depend on the processing

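The 3 libraries differ in genotype and pool many mice each, so that neither mice nor genotypes are replicated. The populations rest on 1 detected marker gene, and a cell can hold the marker of a neighbour through free RNA or as a doublet. The deposited table left out proliferating clusters, which fixes part of the gap between its cells and those outside it. Transcript levels give no rate of division, and a mouse gene counted at its 3′ end gives no isoform.

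Of 3063 values of named genes under the alternatives, 2791 kept their side of the threshold, 240 lost the call, 30 gained it and 2 reversed. A change of direction was counted as a reversal only where the gene was called in either fit. Besides the calls and counts given with the results, the library as a block changed no call of a named gene, and no count by over 1.5 times. Where values moved, the cause was not tested.

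With overlapping groups, 20 members were called in Cd209a cells and 4 in C1qa cells, and the shares with Mki67 were 54.5% in Xcr1 cells outside the table, 21.3% in Cd209a, 29.8% in C1qa and 27.7% in Ncr1 cells. With the library as a block, 18 members were called in C1qa cells, and 20 in those with Mki67, as also without the filter on low counts. With each library left out, the members called were 4 to 15 in C1qa cells and 21 to 31 in Cd209a cells with Mki67. In all sections, counts of members called under an alternative have no background beside them unless the genes called in that fit are printed.

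At 4000 UMIs per cell, 14 members were called in Cd209a and 7 in C1qa cells with Mki67, and the genes called were 1680, 2058 and 2933 in Cd209a, C1qa and Ncr1 cells with Mki67, against 4626, 5231 and 6658 with all UMIs. Kif20a in Cd209a cells with Mki67 went to 0.26 (adjusted p = 0.63, from -0.44) and Rbl2 in C1qa cells with Mki67 to -0.18 (adjusted p = 0.79, from 0.52). The shares were 3.26%, 40.4%, 7.36%, 12.5% and 15.9% in deposited cDC1s, Xcr1 cells outside the table, Cd209a, C1qa and Ncr1 cells.

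With at least 2 Mki67 UMIs, added after seeing the data, they were 2.09%, 50.4%, 7.63%, 14.6% and 16.5%, and 18 members were called in Cd209a cells. With markers at 2 or more UMIs the share outside the table was 66.6%. With at least 2000 genes it was 66.3%, and 24.9% in C1qa and 32.5% in Ncr1 cells. Among cluster levels, Top2a, Hist1h1b (cluster 11) and Anln (cluster 10) were at 0 CPM, Pcna in cluster 6 went to 153.7 CPM and Cdca3 in cluster 5 to 13.5 CPM at 4000 UMIs. Of the further levels printed, Top2a went to 1.41 CPM in cluster 5, Ccnb1 and Nusap1 to 0 there, and Ccnb2 in cluster 4 to 3.71 CPM.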
